A study of Mus musculus with 6 samples.

Results

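ERVK elements are one branch of the endogenous retroviruses of the mouse, the remains of betaretrovirus-like infections that entered the germ line and were copied on through RNA. A complete copy has an internal part with the viral genes between a pair of long terminal repeats (LTRs), which hold its promoter and its polyadenylation signal, while many other copies have been reduced to a lone LTR. The branch includes the intracisternal A particles (IAPs), the early transposons (ETn) with their coding relative MusD, and MMERVK10C. In mouse pluripotent cells such copies are known to be held down by KRAB zinc finger proteins, the corepressor Trim28 and the histone methyltransferase Setdb1, together with DNA methylation.

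The expression of ERVK subfamilies was compared between mouse induced pluripotent stem cells (iPSCs, somatic cells returned by reprogramming to a pluripotent state) without and with serum response factor (SRF), a transcription factor that acts on cytoskeletal and immediate-early genes. The SRF KO group held 3 bulk RNA libraries of SRFΔ/Δ cells and the WT group 3 libraries of SRFf/f cells, all from cultures in serum-containing medium. The WT cells thus carried the conditional allele in its intact form. The labels name neither the recombinase, the strain nor the clones, and do not say whether the replicates were separate cultures, so that p-values measure only the spread between these libraries. A single-cell experiment of the same series was not analysed here.

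The members were all entries of the count table assigned to the ERVK family with a mean of at least 10 counts over the 6 libraries, which left 247 of 285 ERVK entries in a table of 24421 genes and 1146 repeat subfamilies. Each entry sums the reads of every copy of a subfamily. By name, 43 members were internal parts (ending in -int) and 204 were LTRs, and 21 of all members were IAP entries, 9 of them internal and 12 LTRs. Just inside the minimum were RLTR13F with a mean of 10.3 counts, RLTR10F with 10.8 and ERVB3_1-LTR_MM with 11.2, and just outside were IAPLTR3 with 9.83, RLTR47 with 9.50 and RLTR19A with 8.83. Of the 38 entries under the minimum, 4 had no count in any library. A filter on low counts then removed RLTR13D3A and RLTR10F, and the other 245 were tested. The table gives no length or copy number, so that counts of different subfamilies are read as shares of the library and not as levels per copy.

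Total counts lay between 26321602 and 36680156 per library, of which the ERVK members took between 256436 and 401228, and no member was at 0 in any library. Srf itself, the deleted gene, stood at 4.20, 3.17 and 4.53 CPM (each count divided by the library's total and brought to 1 scale, here after TMM, the trimmed mean of M values) in the SRF KO libraries and at 36.6, 29.7 and 37.1 CPM in the WT libraries, which goes with the labels (log2 fold change -3.12, adjusted p 8.1e-09). The stem cell markers were present in all libraries, with 10 genes summing to between 4794 and 4898 CPM in SRF KO and between 5918 and 6399 CPM in WT, 1 gene higher and 5 lower. The cultures also differed in markers of other cell types. All 13 primitive and visceral endoderm markers tested of 14 were higher in SRF KO, with a sum between 1479 and 1639 CPM against 79.0 to 84.4 CPM in WT, where Ttr was at 0 in all libraries, and Afp was not tested. All 12 markers of fibroblasts, which can serve as feeder cells, were higher too, at 1311 to 1602 CPM against 637 to 744 CPM. The labels do not say whether feeder cells were present. Of 6 trophoblast markers 5 were tested, with 0 higher and 2 lower (71.3 to 76.2 CPM against 107 to 117 CPM). The part of these cells in the differences given below was not tested, and in bulk RNA fewer cells of a type cannot be told apart from less RNA per cell.

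ERVK members took a smaller share of the counts in the SRF KO libraries, and MMETn-int made up most of the difference. The members held 0.969%, 1.05% and 0.951% of all counts in SRF KO replicates 1 to 3, against 1.09%, 1.149% and 1.07% in WT replicates 1 to 3. The groups did not overlap, with means of 0.991% ± 0.0537 and 1.105% ± 0.0400 (SD, n = 3), a difference of -0.114 percentage points. A two-sided exact permutation test over all 20 ways to assign the libraries gave p = 0.1, the smallest value that 3 against 3 libraries allow, and 0.13 after Benjamini-Hochberg adjustment over the 13 shares and ratios compared. Of the counts of all repeats alone, which do not depend on the genes, ERVK held 19.0% ± 0.380 in SRF KO against 21.3% ± 0.226 for WT, again without overlap (exact permutation p = 0.1).

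The ERVK signal was concentrated in few subfamilies. MMETn-int, the internal part of the noncoding ETn element that needs the proteins of MusD to move, took 43.9% of all ERVK counts over the 6 libraries. ETnERV-int followed with 8.51%, the LTR entry RLTR13G with 5.76% and RLTR19-int with 5.72%, so that these 4 entries made up 63.9%. Internal entries together took 74.4%. MMETn-int alone held 0.418% ± 0.0314 of all counts in SRF KO, against 0.502% ± 0.0292 for WT (SD, n = 3), without overlap (exact permutation p = 0.1). Without MMETn-int the ERVK share was 0.572% ± 0.0233 of all counts in SRF KO against 0.603% ± 0.0161 for WT (SD, n = 3), and the groups overlapped, with an exact permutation p of 0.2 (0.236 after adjustment over the 13 measures). This difference of -0.031 percentage points was -0.020 without SRF KO replicate 3.

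**Figure D1:**
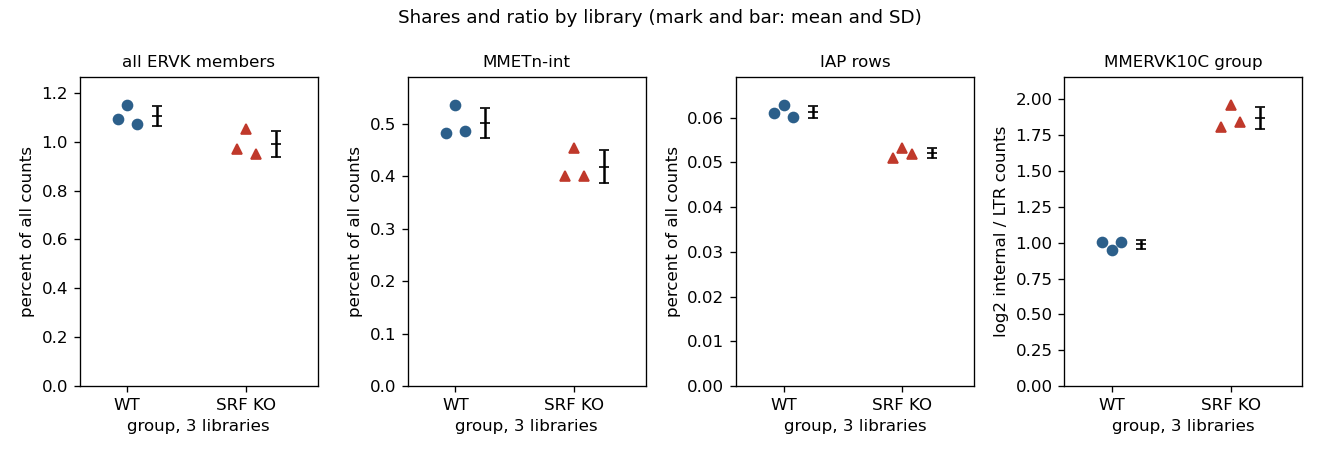
Shares of all counts (percent) for all ERVK members, MMETn-int and the IAP entries, and the log2 ratio of internal to LTR counts for the MMERVK10C group. Each point is 1 library (circles WT, triangles SRF KO), and the mark with its bar gives the mean and SD of 3 libraries. In the panels of shares every SRF KO library lies below every WT library, and in the panel of the ratio every SRF KO library lies above, at 1.81 to 1.96 against 0.948 to 1.01.

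Of the 245 members tested, 22 were higher and 31 were lower in SRF KO. The threshold was an adjusted p of 0.05 from the quasi-likelihood test of edgeR, adjusted after Benjamini-Hochberg over all 15611 genes and repeats tested, which holds for all adjusted p-values here unless another fit is named. Their median log2 fold change was -0.06, against -0.02 over all entries tested. For 76 members, 31 higher and 45 lower, the libraries of SRF KO and WT did not overlap, which was so for 51.4% of all entries tested. Of all entries tested 20.4% were higher and 20.7% lower, of genes alone 21.2% and 21.3%, and of the repeats outside ERVK 4.60% were higher and 10.4% lower. Most differences were small, and 3 of the 53 members past the threshold changed by 1 or more on the log2 scale.

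Internal and LTR entries were counted apart. Of 43 internal entries 10 (23.3%) were higher and 8 (18.6%) lower. These shares lay near those of all entries (20.4% and 20.7%) and above those of repeats outside ERVK (4.60% and 10.4%). The log2 fold changes of internal entries ranged from -0.53 to 1.30 with a median of -0.02. Of 202 LTR entries tested 12 (5.94%) were higher and 23 (11.4%) lower, shares near those of repeats outside ERVK and below those of all entries. The log2 fold changes of LTR entries ranged from -1.0 to 1.43 with a median of -0.07. With scaling on the repeats alone these medians turned to 0.06 for internal and 0.0047 for LTR entries. Among the 60 internal entries of other repeat families, 7 were higher and 6 lower. More counts went with more calls, since 17 members were higher and 24 lower among the 139 whose mean count was 100 or more, and 5 and 7 among the 106 below. With a library left out, the count of internal entries higher was 6 (SRF KO replicate 1), 6 (SRF KO replicate 2) and 5 (WT replicate 1). That of LTR entries lower was 15 (SRF KO replicate 1), 14 (SRF KO replicate 3) and 15 (WT replicate 1), and it was 11 when scaling rested on the repeats alone. Related families outside ERVK had 16 higher and 6 lower of 82 (ERV1), 3 and 5 of 72 (ERVL) and 0 and 6 of 83 (ERVL-MaLR).

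**Figure D2:**
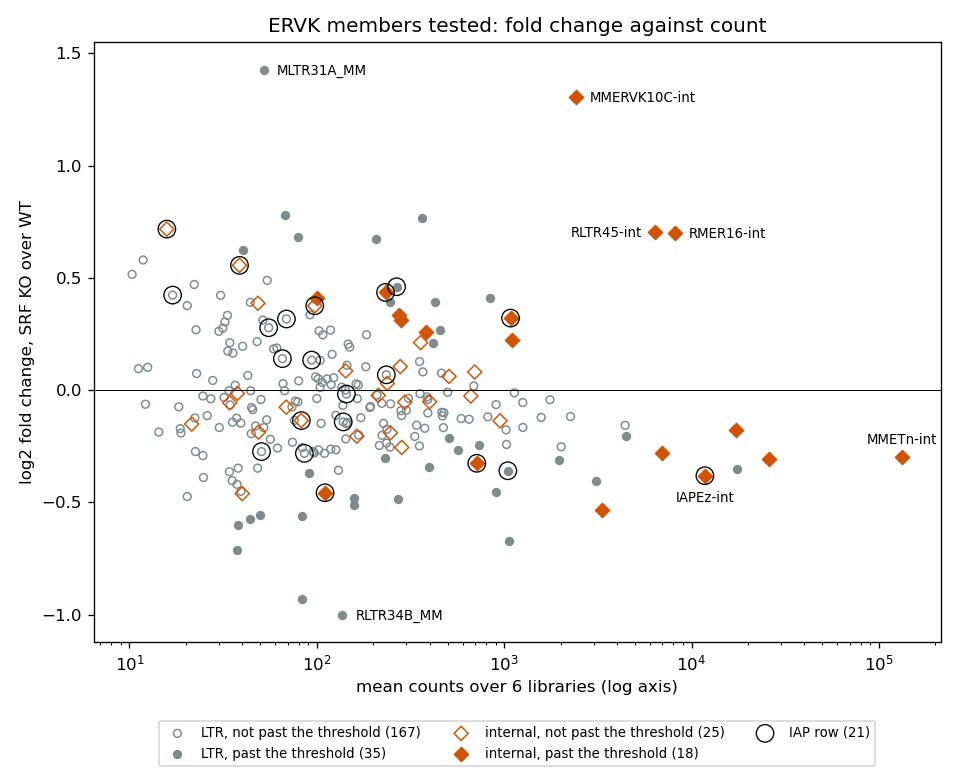
Log2 fold change of SRF KO over WT against the mean count over 6 libraries (log axis) for the 245 ERVK members tested. Diamonds are internal entries, small circles LTR entries, filled marks are past the adjusted p of 0.05 and rings mark the 21 IAP entries. MMERVK10C-int, RLTR45-int and RMER16-int stand above every other member with a mean of 2422 counts or more, and MMETn-int lies farthest right at -0.30.

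MMERVK10C-int, the internal part of a provirus that is a known target of Trim28 and Setdb1 in mouse embryonic stem cells, had the largest rise of all internal entries. It stood at 115, 132 and 119.6 CPM in the SRF KO libraries and at 49.2, 53.4 and 46.0 CPM in the WT libraries. Every SRF KO library thus lay above every WT library, by 2.47-fold between groups (log2 fold change 1.30, SE 0.07, adjusted p 7e-08). RLTR10C, the LTR that flanks this internal part, was at 8.40, 9.36 and 9.02 CPM in SRF KO and at 5.60, 5.87 and 5.33 CPM in WT, a rise without overlap that was smaller (0.67, SE 0.09, adjusted p 0.00016). The ratio of MMERVK10C-int to RLTR10C counts was 13.7, 14.1 and 13.3 in SRF KO and 8.79, 9.11 and 8.63 in WT, so that the internal part gained on its LTR in each SRF KO library.

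The other entries named RLTR10, grouped here with MMERVK10C, moved both ways. RLTR10B rose (log2 fold change 0.68, adjusted p 0.0037), while RLTR10A fell by 0.93 on the log2 scale (adjusted p 0.0019) and RLTR10D by 0.48 (adjusted p 0.000615), and RLTR10-int was at -0.14 (adjusted p 0.12). In all, 3 of the 10 entries of the group tested were higher and 2 lower. The log2 ratio of internal to LTR counts summed over the group was 1.87 ± 0.0794 in SRF KO against 0.987 ± 0.0341 for WT (SD, n = 3), a difference of 0.88 without overlap between groups (exact permutation p = 0.1, adjusted 0.13).

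A further pair of internal entries rose by like amounts. RMER16-int had 357, 376 and 334 CPM in the SRF KO libraries and 211, 238 and 207 CPM in the WT libraries (log2 fold change 0.70, SE 0.06, adjusted p 6.3e-06). RLTR45-int had 275, 298 and 267 CPM in SRF KO and 163, 185 and 167 CPM in WT (log2 fold change 0.70, SE 0.06, adjusted p 3.8e-06). In both, all SRF KO libraries were above all WT libraries. The ratio of their counts was 1.30, 1.26 and 1.25 in SRF KO and 1.29, 1.29 and 1.24 in WT. This pair was chosen for comparison after its values were seen, and the LTR entries of the same names were named with it. These LTR entries did not pass, with RLTR45 at 0.02 (adjusted p 0.90) and RMER16 at 0.17 (adjusted p 0.53). RMER16 had a mean of only 33.5 counts, against 8160 for RMER16-int.

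The ETn and MusD entries, the most abundant of the branch, were lower in their large members. MMETn-int was at 3934, 4532 and 3926 CPM in the SRF KO libraries and at 4889.9, 5477 and 4889 CPM in the WT libraries. The highest SRF KO library stayed below the lowest WT library, and the entry fell by 0.30 on the log2 scale (SE 0.07, adjusted p 0.0048). ETnERV-int fell by 0.31 (SE 0.05, adjusted p 0.00068), from 993, 967 and 989 CPM in WT to 801, 835 and 749 CPM in SRF KO.

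The rest of the group did not follow. ETnERV2-int, near 23 CPM, was at -0.03 (adjusted p 0.82). ETnERV3-int, at 11.5, 11.5 and 9.40 CPM in SRF KO and 8.20, 9.71 and 7.80 CPM in WT, rose by 0.34 (adjusted p 0.030) with overlapping groups. That call was lost without SRF KO replicate 1 (0.29), SRF KO replicate 2 (0.29), WT replicate 1 (0.30) and WT replicate 3 (0.28). RLTRETN_Mm, the LTR of ETn, was at 138, 152 and 138 CPM in SRF KO and 193, 113 and 169.7 CPM in WT, where replicate 2 lay below every other library, and it did not pass (-0.16, adjusted p 0.41). Without WT replicate 2 it was at -0.35 and past the threshold (adjusted p 7.9e-05), and without WT replicate 1 at 0.01. The group's log2 ratio of internal to LTR counts, 5.12 ± 0.0320 in SRF KO against 5.30 ± 0.477 for WT (SD, n = 3), overlapped between groups (exact permutation p = 0.8). Its difference of -0.18 was -0.36 without WT replicate 1 and 0.09 without WT replicate 2, which alone was at 5.84.

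**Figure D3:**
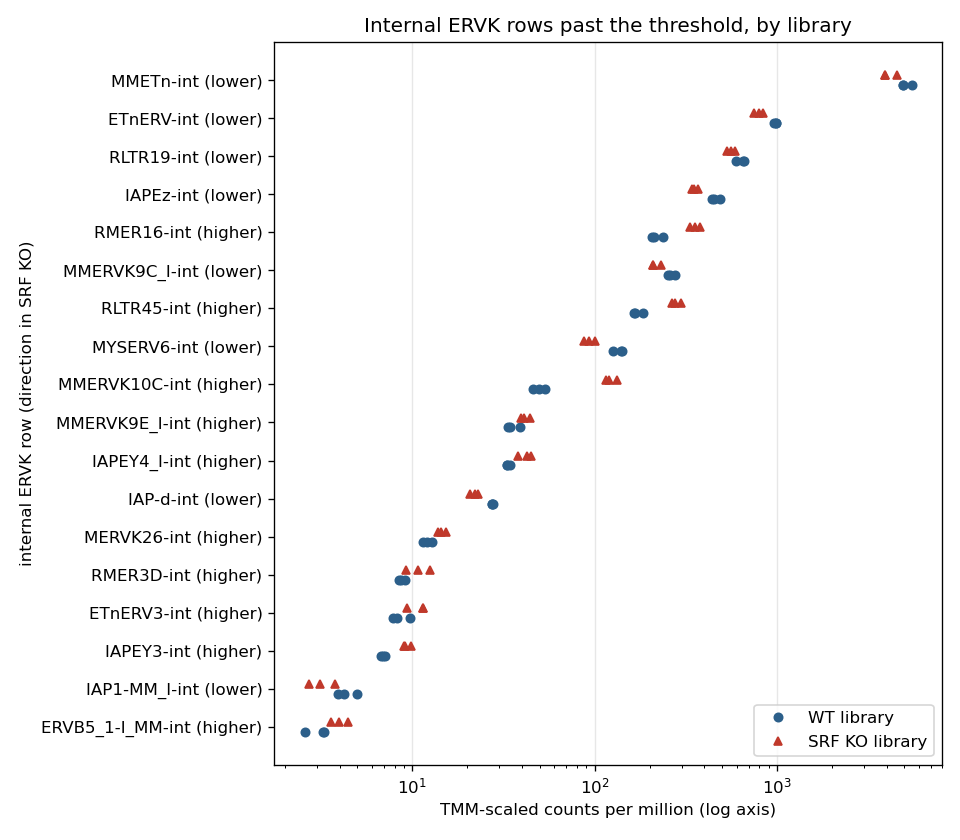
TMM-scaled CPM (log axis) of the 18 internal ERVK entries past the threshold, ordered by mean count. Circles are WT libraries and triangles SRF KO libraries, 3 of each per entry. Among the 8 entries with the most counts, RMER16-int and RLTR45-int are the ones that lie higher in SRF KO, and below them MMERVK10C-int shows the widest gap between groups.

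IAP entries went both ways. Of 21 entries 3 were higher, 4 lower and 14 did not pass, and the median log2 fold change was 0.13. These shares of 21 entries, 14.3% higher and 19.0% lower, are a description, to be read beside 20.4% and 20.7% of all entries tested. Of the repeats outside ERVK, 4.60% were higher and 10.4% lower. None of the IAP entries that passed changed by 1 or more on the log2 scale. Their summed share was lower, since IAP entries took 0.0521% ± 0.00115 of all counts in SRF KO against 0.0613% ± 0.00133 for WT (SD, n = 3), without overlap (exact permutation p = 0.1, adjusted 0.13). The median over entries and the summed share thus differ in sign, with a mean of 11789 counts for IAPEz-int and of 15.8 to 1082 counts for the other entries.

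IAPEz-int, the internal part of the main active IAP group, was at 344, 367 and 350.2 CPM in the SRF KO libraries and at 452, 487 and 443 CPM in the WT libraries. No library of SRF KO reached the WT range, and the entry fell by 0.38 on the log2 scale (SE 0.05, adjusted p 0.00015). IAPLTR1_Mm, its LTR, was at 30.6, 33.0 and 30.6 CPM in SRF KO and 44.5, 34.4 and 41.6 CPM in WT, and fell by 0.36 (SE 0.09, adjusted p 0.0064). WT replicate 2 lay just above the highest SRF KO library, and with scaling on the repeats alone the call was lost (-0.28, adjusted p 0.087). IAP-d-int fell by 0.33 (adjusted p 0.0018), from 27.2, 27.4 and 27.7 CPM in WT to 22.8, 22.01 and 20.8 CPM in SRF KO. IAP1-MM_I-int, at 3.75, 3.13 and 2.73 CPM in SRF KO and 4.996, 4.20 and 3.90 CPM in WT, fell by 0.46 (adjusted p 0.030), a call lost with DESeq2 (-0.45), with scaling on the repeats (-0.38), and with SRF KO replicate 2 (-0.44), SRF KO replicate 3 (-0.35) or else WT replicate 1 (-0.34) left out.

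Of the IAP entries that rose, IAPEY4_I-int was at 38.2, 44.7 and 42.6 CPM in SRF KO and at 34.2, 33.1 and 33.2 CPM in WT, above in each SRF KO library (log2 fold change 0.32, SE 0.07, adjusted p 0.0025). IAPEY3-int was at 8.95, 9.17 and 9.88 CPM in SRF KO and 6.76, 6.88 and 7.11 CPM in WT (0.43, SE 0.09, adjusted p 0.0021). IAPLTR2_Mm rose by 0.46 (SE 0.11, adjusted p 0.0046), from 7.70, 7.30 and 8.54 CPM in WT to 10.4, 12.3 and 9.78 CPM in SRF KO. None of these groups overlapped, and the 3 calls held in each of the 12 other fits (other scalings, filters and tools, and each library left out).

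The remaining IAP entries had between 15.8 and 235 mean counts and log2 fold changes from -0.28 to 0.72. The internal ones were IAPLTR3-int at 0.38, IAPA_MM-int at -0.14, IAPEy-int at 0.56 and IAPEY5_I-int at 0.72. The LTRs were IAPLTR1a_Mm at 0.07, IAPEY2_LTR at -0.02, IAPLTR2a2_Mm at -0.14, IAPEY_LTR at 0.13, IAPEY3_LTR at -0.28, IAPEY4_LTR at 0.32, IAPLTR2a at 0.14, IAPLTR2b at 0.28, IAPEY3C_LTR at -0.27 and IAP1-MM_LTR at 0.42. Some of them passed with a library left out: IAPLTR3-int passed without WT replicate 2 (0.47), IAPEy-int without SRF KO replicate 2 (0.81) or WT replicate 2 (0.79), and IAPEY5_I-int (1.02) and IAPEY3_LTR (-0.43) without WT replicate 3. The count of IAP entries higher was 5 without WT replicate 2. The log2 ratio of internal to LTR counts over all IAP entries was 2.54 ± 0.0199 in SRF KO against 2.74 ± 0.165 for WT (SD, n = 3, exact permutation p = 0.1), and its difference of -0.21 was -0.11 without WT replicate 2.

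**Figure D4:**
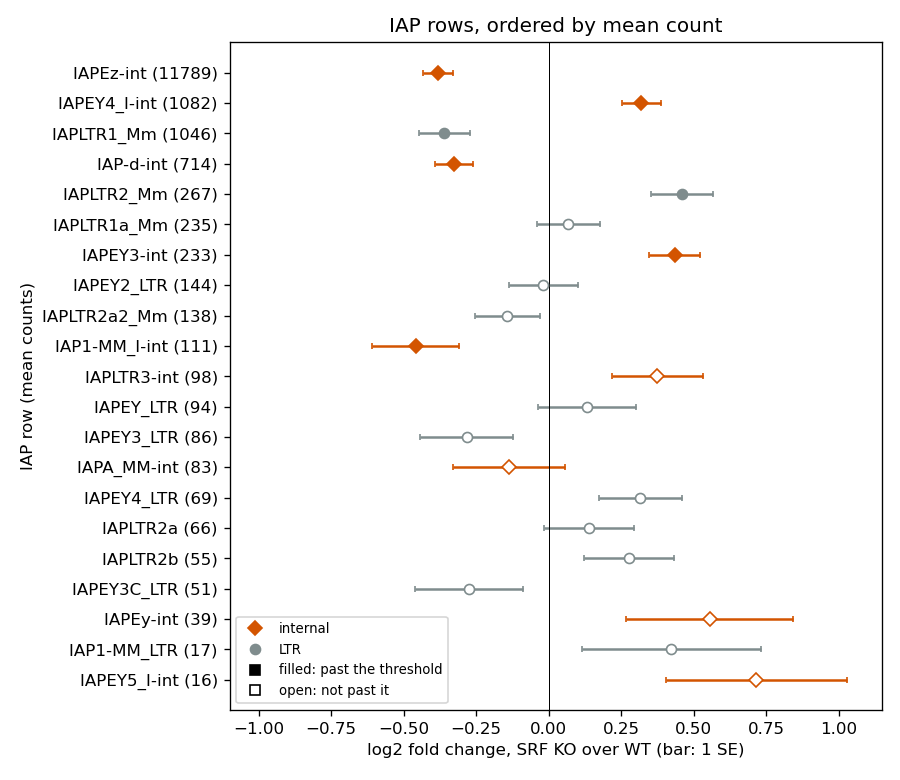
Log2 fold change of SRF KO over WT with its SE for the 21 IAP entries, ordered by mean count (in brackets). Diamonds are internal entries and circles LTRs, and filled marks are past the adjusted p of 0.05. IAPEz-int at the top lies at -0.38 and IAPEY4_I-int below it at 0.32, and the SE widens toward the entries with few counts.

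Among the other internal entries, MYSERV6-int showed the largest fall of any internal entry. It had 87.2, 101 and 93.5 CPM in the SRF KO libraries and 142, 139.5 and 126 CPM in the WT libraries, without overlap (log2 fold change -0.53, SE 0.06, adjusted p 5.1e-05). MMERVK9C_I-int fell by 0.28 on the log2 scale (adjusted p 0.0024), with 209, 232 and 208 CPM in SRF KO against 259.7, 277 and 252 CPM in WT. RLTR19-int, at 559, 592 and 535 CPM against 657, 653 and 599 CPM, fell by 0.18 (adjusted p 0.025). This call was lost with SRF KO replicate 1 (-0.17), SRF KO replicate 3 (-0.14) or else WT replicate 1 (-0.16) left out, and with scaling on the repeats (-0.10).

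A set of smaller rises lost the call when any of several libraries was left out. MMERVK9E_I-int rose by 0.22 (adjusted p 0.025), a call lost without SRF KO replicate 1 (0.23), SRF KO replicate 2 (0.19), WT replicate 1 (0.20) or WT replicate 3 (0.18). MERVK26-int rose by 0.26 (adjusted p 0.022), a call lost with SRF KO replicate 1 (0.26), SRF KO replicate 2 (0.23) or else WT replicate 1 (0.22) left out. For RMER3D-int the rise was 0.31 (adjusted p 0.040), lost with SRF KO replicate 1 (0.32), SRF KO replicate 2 (0.20) or else WT replicate 1 (0.29) left out. ERVB5_1-I_MM-int rose by 0.41 (adjusted p 0.037), lost with DESeq2 (0.41) and with SRF KO replicate 2 (0.34), SRF KO replicate 3 (0.42) or else WT replicate 1 (0.29) left out. These 4 entries kept their direction in each of these fits, and their values did not overlap between groups.

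The 25 internal entries that did not pass had log2 fold changes from -0.46 to 0.72 and mean counts from 15.8 to 951. Beside the ETn, IAP and RLTR10 entries above they were ERVB entries, namely ERVB4_2-I_MM-int at 0.06, ERVB2_1A-I_MM-int at -0.02, ERVB4_1B-I_MM-int at -0.21, ERVB4_3-I_MM-int at -0.19, ERVB3_1-I_MM-int at -0.46 and ERVB4_1-I_MM-int at -0.01. RMER entries were RMER17C-int at -0.26, RMER17A-int at -0.08 and RMER6-int at -0.06. The others were MurERV4-int at 0.08, MurERV4_19-int at 0.21, RLTR18-int at -0.05, MYSERV16_I-int at -0.05, MYSERV-int at 0.10, RLTR42-int at -0.19, MMERVK10D3_I-int at 0.03, SRV_MM-int at 0.09, RLTR44-int at 0.39 and MMTV-int, of the mouse mammary tumour virus family, at -0.15. MurERV4_19-int passed without WT replicate 2 (0.28) and with scaling on the repeats (0.29, adjusted p 0.038), and RMER17C-int without WT replicate 3 (-0.31).

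LTR entries that rose were led by MLTR31A_MM, with 2.79, 2.94 and 2.38 CPM in the SRF KO libraries and 1.16, 1.09 and 0.732 CPM in the WT libraries. It had the largest fold of all members (2.69-fold, log2 fold change 1.43, SE 0.19, adjusted p 0.00013) at a mean of few counts. ERVB4_2-LTR_MM was at 15.9, 16.1 and 16.3 CPM in SRF KO and 10.4, 8.94 and 8.88 CPM in WT, a rise of 0.77 (SE 0.08, adjusted p 2.6e-05). Its SRF KO libraries lay close together and clear of the WT libraries. RMER12B at 0.39, BGLII at 0.41, RMER16A3 at 0.78 and the RLTR10B and RLTR10C entries above were also higher. The 4 other LTR entries that rose, with IAPLTR2_Mm apart, had values from 0.21 to 0.62.

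LTR entries that fell included abundant ones. RLTR13G, the most abundant LTR entry, was at 538, 562 and 483 CPM in SRF KO and 707, 692 and 623 CPM in WT, and fell by 0.35 on the log2 scale (SE 0.07, adjusted p 0.0013) without overlap. RMER16B2 was at 28.4, 28.2 and 27.6 CPM in SRF KO and 44.5, 45.9 and 43.8 CPM in WT, and had the smallest p of the LTR entries (-0.67, SE 0.06, adjusted p 2.9e-06). RMER16B2 and RMER16-int, whose names share the stem RMER16, thus moved in opposite directions. RMER16A3, of the same stem, was higher like RMER16-int, and RMER16 was at 0.17 and did not pass. RLTR34B_MM showed the largest fall of all members, from 6.62, 6.49 and 5.54 CPM in WT to 3.08, 3.28 and 2.97 CPM in SRF KO (-1.0, SE 0.12, adjusted p 4.8e-05).

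Smaller falls were seen for RMER19B at -0.31, RMER6B at -0.46, RLTR9D at -0.51 and RLTR31D_MM at -0.41, each without overlap. ERVB7_1-LTR_MM fell by 0.21 (adjusted p 0.015), from 174, 152 and 165 CPM in WT to 139.6, 137 and 149 CPM in SRF KO, a call lost with SRF KO replicate 1 (-0.19), SRF KO replicate 2 (-0.18) or else WT replicate 1 (-0.16) left out and with scaling on the repeats (-0.13). RMER6A, also among the 5 most abundant LTR entries, did not pass (-0.12, adjusted p 0.32). The 12 other LTR entries that fell had values from -0.71 to -0.21, and the 167 that did not pass lay between -0.47 and 0.58.

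Counts by name group are a description, to be read beside the 4.60% higher and 10.4% lower of repeats outside ERVK and the 20.4% and 20.7% of all entries. RLTR13 entries had 1 higher and 4 lower of 20, RMER entries 4 and 3 of 39, ERVB entries 2 and 2 of 18, and MMERVK9 with RLTR9 entries 2 and 3 of 13. RLTR11 had 0 and 2 of 5, RLTR17 0 and 1 of 4, RLTR44 0 and 0 of 5, MYSERV 0 and 1 of 3 and BGLII 1 and 0 of 6. Of the 93 members outside the named groups, 4 were higher and 7 lower. Each of these groups held members that did not pass.

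Internal entries were then set beside the LTR entries of the same name stem. Of 16 such pairs, 5 had both log2 fold changes above 0, 6 had both below 0 and 5 had opposite signs. The internal entry passed in 7 pairs and the LTR entry in 2, and 0 pairs had both past the threshold. Of all internal entries tested 23.3% were higher and 18.6% lower, and of all LTR entries 5.94% and 11.4%. These LTR entries had mean counts from 11.2 (ERVB3_1-LTR_MM) to 1257 (RMER17C). Outside the pairs by stem, MMERVK10C-int with RLTR10C and IAPEz-int with IAPLTR1_Mm had both entries past the threshold. MMETn-int passed without RLTRETN_Mm. IAPEY4_I-int and IAPEY4_LTR had the same value of 0.32, of which that of the internal entry passed. ERVB4_2-I_MM-int was at 0.06 beside the rise of 0.77 of ERVB4_2-LTR_MM. The other LTR entry that passed, RLTR42, named after its values were seen, was at -0.60 (adjusted p 0.048) beside -0.19 for its internal entry. Its call was lost in 8 of the 12 other fits, including those without SRF KO replicate 1 (-0.58), SRF KO replicate 3 (-0.41), WT replicate 1 (-0.69), WT replicate 2 (-0.59) and WT replicate 3 (-0.53).

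Summed over all members, the log2 ratio of internal to LTR counts was 1.53 ± 0.0362 in SRF KO against 1.56 ± 0.0645 for WT (SD, n = 3), with overlap between groups (exact permutation p = 0.7). Its difference of -0.02 turned to 0.01 without WT replicate 2. Leaving out other libraries gave -0.0042 (SRF KO replicate 1), -0.04 (SRF KO replicate 2), -0.06 (WT replicate 1) and -0.01 (WT replicate 3). Without MMETn-int, the ratio was 0.33 ± 0.0050 in SRF KO against 0.20 ± 0.0333 for WT, higher in every SRF KO library (exact permutation p = 0.1, adjusted 0.13). MMETn-int is the most abundant internal entry and was itself lower, so that leaving it out raises this difference by itself. RLTR13G, the most abundant LTR entry and also lower, was kept. The p-value is therefore no separate sign of a rise of internal entries.

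**Figure D5:**
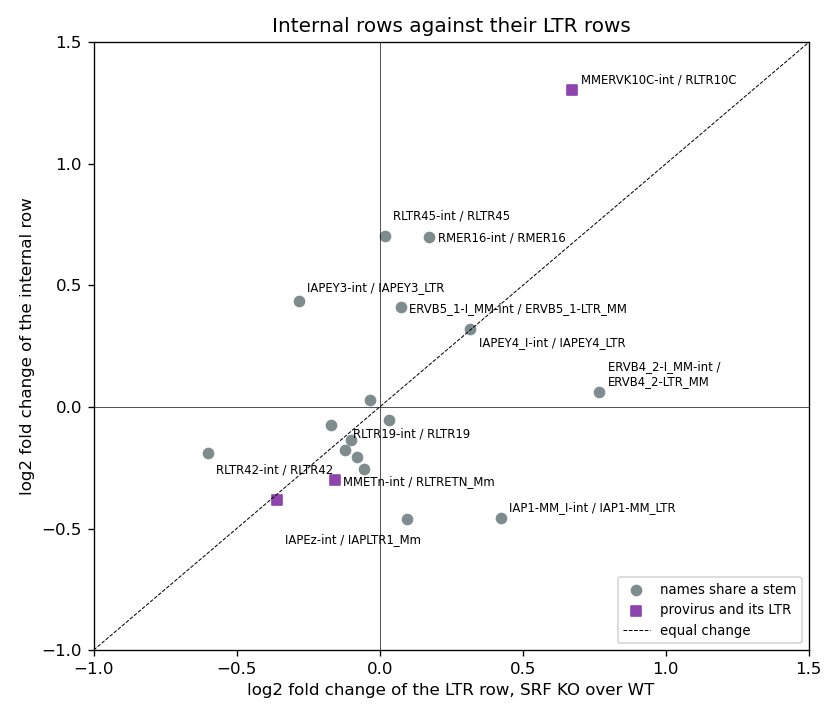
Log2 fold change (SRF KO over WT) of internal entries on the vertical axis against that of LTR entries on the horizontal axis, for 16 pairs that share a name stem (circles) and 3 pairs of a provirus and its LTR (squares). Names are given where at least 1 entry of the pair is past the adjusted p of 0.05, and the dashed line marks equal change. MMERVK10C-int with RLTR10C lies at 1.30 and 0.67, and RLTR45-int and RMER16-int lie at 0.70 with LTR values of 0.02 and 0.17.

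A list of 43 genes of retroelement silencing was examined, which also holds Tet enzymes that oxidise methylcytosine, and all 43 were tested. Of these 6 were higher and 11 lower, beside 21.2% of all genes higher and 21.3% lower, and the median log2 fold change was -0.10. The de novo DNA methyltransferase Dnmt3a rose from 243, 242 and 244 CPM in WT to 445, 446 and 448 CPM in SRF KO (0.88, SE 0.04, adjusted p 4.6e-08). Its cofactor Dnmt3l fell by 0.52 on the log2 scale (adjusted p 4e-06), from 288, 282 and 291 CPM to 204, 198 and 197 CPM. The libraries of each group lay within a few CPM of each other in both genes, and the groups were far apart.

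Tet3, an enzyme that oxidises methylcytosine, rose by 0.71 (adjusted p 5e-05), while Chaf1b, a subunit of the chromatin assembly factor CAF-1, fell by 0.36 (adjusted p 0.00011). Kdm1a, a histone demethylase, fell by 0.31 (adjusted p 0.00021) and Cbx1, a heterochromatin protein, by 0.26 (adjusted p 0.0067). The maintenance methyltransferase Dnmt1 fell by 0.24 (adjusted p 0.0017) and its partner Uhrf1 by 0.21 (adjusted p 0.0067). With scaling on the repeats alone both calls were lost, at -0.16 (adjusted p 0.082) and -0.13 (adjusted p 0.23).

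The KRAB pathway works through Trim28 and Setdb1. Trim28 was at 1442, 1335 and 1417 CPM in the SRF KO libraries and at 1403, 1256 and 1479.8 CPM in the WT libraries, with overlapping groups (0.02, SE 0.06, adjusted p 0.84). Setdb1, at 135, 136 and 135 CPM in SRF KO and 144, 149 and 147 CPM in WT, fell by 0.12 with an adjusted p of 0.0497, and lost this call with DESeq2 (adjusted p 0.12). With scaling on the repeats alone it was at -0.04 (adjusted p 0.65) and with library totals at -0.08 (adjusted p 0.15), and the call was lost too with scaling on genes and with no filter. The same held without SRF KO replicate 1, 2 or 3 or WT replicate 1 or 3, at values from -0.13 to -0.12. Zfp809, a KRAB zinc finger protein that recruits Trim28 to proviral primer binding sites, was at 0.18 (adjusted p 0.12) and passed with scaling on the repeats (0.26, adjusted p 0.036) and without WT replicate 2 (0.28, adjusted p 0.0022). These are differences in RNA, and protein, methylation and binding were not measured here.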

How the data were processed

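Bulk RNA was measured in 3 SRF KO and 3 WT iPSC libraries, with 150 bp paired reads per the labels' protocols. The authors deposited whole-number counts per gene and repeat subfamily. Per the submitters' processing notes the build mm10 and DESeq2 were named, without a role. The aligner, the counter, its use of strand and its rule for reads that fit several copies are not given in the sources used here. That rule decides how reads are shared between related subfamilies, so that values of near-identical entries are uncertain, and reads of genes that run through a copy may be included.

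One fit covered all entries, in R 4.3.3 with edgeR 4.0.16 (filterByExpr with a minimum count of 10, TMM on all entries, quasi-likelihood test, Benjamini-Hochberg adjustment over all entries tested, threshold 0.05). The SE is the absolute log2 fold change divided by the square root of F. Shares and ratios had exact permutation tests (scipy 1.17.1). Alternatives were DESeq2 1.42.0, scaling on genes, on repeats or on library totals, no filter, a replicate term, stricter thresholds and each library left out. The fit was tested on simulated data. Total counts of 26321602 to 36680156 set the precision, and 3 counts are 0.0828 to 0.117 CPM. Replicate libraries differed by more than sampling noise, and WT replicate 2 differed most. Its chi-square per degree of freedom was 12.9 against WT replicate 1 and 15.3 against WT replicate 3. The value was 3.81 between WT replicates 1 and 3, and 1.83 to 5.12 between SRF KO libraries.

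The members, lists and tests were chosen with earlier results of these data known. The entries named are all internal and IAP members, the 8 LTR members with the smallest p in each direction, the 5 with the most counts, and of the silencing list up to 8 genes past the threshold with Trim28, Setdb1, Dnmt1 and Zfp809. Entries next to the count minimum or removed by the filter are named for that reason. RLTR42 was chosen after its values were seen. The LTR entries RLTR45 and RMER16 were named with the internal pair that was so chosen. No consensus sequence or position of the subfamilies was used here.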

Additional observations from a re-analysis of the deposited data

How the results depend on the processing

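Of the calls reported, 5 of 10 internal entries higher, 6 of 8 internal lower, 8 of 12 LTR higher and 11 of 23 LTR lower held in each of the 12 other fits. Counts moved by more than 1.5 times as follows. An adjusted p under 0.01 left 5 internal entries higher and 13 LTR entries lower. A minimum of 1 on the absolute log2 scale left 1 internal higher, 0 internal lower, 1 LTR higher, 1 LTR lower, 0 IAP higher and 0 IAP lower. Scaling on the repeats gave 11 LTR and 2 IAP entries lower, and library totals gave 15 LTR lower. Leaving out 1 library gave 5 to 13 internal higher, 14 to 27 LTR lower and 3 to 5 IAP higher. Scaling on the repeats moved the median of all entries by 0.08 and turned the medians of internal and LTR entries to 0.057 and 0.0047, and library totals turned that of internal entries to 0.013. Without 1 library the internal median lay between -0.048 and 0.072. The IAP median was -0.080 among entries whose mean count was 100 or more. The log2 ratio of internal to LTR counts differed by -0.057 to 0.0057 over all members and by -0.36 to 0.090 for ETn/MusD. The causes were not tested.

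Among the internal and IAP entries, the 5 most abundant LTR entries and the named genes, those that did not pass and changed sign were, with scaling on the repeats, ETnERV2-int (0.053), RLTR18-int (0.0285), MYSERV16_I-int (0.026), ERVB2_1A-I_MM-int (0.057), RMER17A-int (0.0025), ERVB4_1-I_MM-int (0.063), RMER6-int (0.022) and IAPEY2_LTR (0.064), and with library totals ETnERV2-int (0.00996), ERVB2_1A-I_MM-int (0.013), ERVB4_1-I_MM-int (0.022) and IAPEY2_LTR (0.020). Without 1 library the ranges were -0.030 to 0.185 (MurERV4-int), -0.081 to 0.042 (ETnERV2-int), -0.18 to 0.15 (RLTR18-int), -0.14 to 0.0575 (MYSERV16_I-int), -0.0031 to 0.052 (MMERVK10D3_I-int), -0.10 to 0.12 (ERVB2_1A-I_MM-int), -0.048 to 0.29 (SRV_MM-int), -0.31 to 0.072 (IAPA_MM-int), -0.195 to 0.062 (RMER17A-int), -0.041 to 0.024 (ERVB4_1-I_MM-int), -0.18 to 0.016 (RMER6-int), -0.051 to 0.14 (IAPLTR1a_Mm), -0.12 to 0.046 (IAPEY2_LTR), -0.35 to 0.012 (RLTRETN_Mm) and -0.039 to 0.0705 (Trim28).

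After removal of group means, same-numbered libraries had correlations of 0.0474, 0.279 and 0.148 over all entries tested. SRF KO replicates 2 and 3 each correlated best with the WT library of their own number. SRF KO replicate 1 correlated best with WT replicate 3 (0.169). Once group means are removed, the deviations within a group cancel out, so that these correlations depend on each other. They are not separate signs of pairing. Whether replicate numbers mark paired libraries was not tested, and the main fit has no replicate term. With the replicate block 11 internal entries were higher and 10 lower, 13 LTR higher and 32 lower, and 3 IAP higher and 4 lower, and Srf was at -3.12. Under the block MurERV4_19-int (0.21, adjusted p 0.036), RMER17C-int (-0.25, adjusted p 0.037), ERVB3_1-I_MM-int (-0.49, adjusted p 0.047), RMER6A (-0.12, adjusted p 0.030) and Zfp809 (0.18, adjusted p 0.040) passed.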
